A study of Homo sapiens with 16 samples.

Results

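The BCL2 family of mitochondrial apoptosis was followed through 10 of its genes in Caco-2 cells, a cell line from a human colon carcinoma. The members were taken by gene name from a whole genome array, 10 of 30982 names, and every probe that carried one of the names was kept, which gave 21 probes printed on 48 spots of each array. MCL1 and BCL2L1 were the guardians among them, BAX and BAK1 the effectors, and BCL2L11, BID, BAD, BBC3, PMAIP1 and BIK the BH3-only members. Undifferentiated cells were held for 6 h with PT-G, with PT, with the synthetic gliadin peptide p31-43 at 150 µg/ml, or in medium alone (MED-CTL). PT-G was a gliadin digest made with pepsin and trypsin, and PT was the same enzymes without a substrate. In both, the enzymes were then inactivated by heat. There were 4 arrays per condition, 16 in all, from independent experiments whose cells differed by a few passages, and all 4 groups were cells of the unmodified line. The labels used here give no dose for PT-G or PT.

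Proteins of this family decide whether the outer membrane of the mitochondrion is opened. BAX and BAK1 form the pores, through which cytochrome c leaves and activates the caspases. MCL1 and BCL2L1 (BCL-XL) hold the effectors and the BH3-only proteins in check, and the BH3-only proteins either occupy these guardians or activate the effectors directly. The level of several members, above all of the short-lived MCL1 and of BBC3 (PUMA) and PMAIP1 (NOXA), is known to be set by transcription in stressed cells. Gliadin peptides have been described as inducers of apoptosis in gut epithelial cells, and the comparisons below ask whether the transcripts of this machinery moved within the hours of exposure.

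Of the 10 members, 8 had promoter sequence in the RefSeq table of the GRCh38.p14 build. MCL1 and BIK had none there, so their promoters were not searched. The stretches of 250 bases before the annotated start are shown for PMAIP1 and BAD, which hold the core of the cAMP response element, and for BBC3 and BAX, which hold E-boxes. They are shown because a probe of each of these members was called higher after PT-G than in MED-CTL in the fit blocked by run of arrays, as described below. BID, which was not called, held an E-box in 2 overlapping windows too. Capitals mark matches on either strand to TGACGT (cAMP response element core), CACGTG (E-box), TGANTCA (AP-1 site) and CCAAT (the box of that name), none of which overlapped another in these windows.
PMAIP1, chr18:59899746-59899995, plus strand: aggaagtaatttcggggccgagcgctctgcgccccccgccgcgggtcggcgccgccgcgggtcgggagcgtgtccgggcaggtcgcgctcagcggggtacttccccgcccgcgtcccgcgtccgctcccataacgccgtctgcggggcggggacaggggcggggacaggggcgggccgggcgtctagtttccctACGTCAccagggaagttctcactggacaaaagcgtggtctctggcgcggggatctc
BAD, chr11:64284705-64284954, minus strand: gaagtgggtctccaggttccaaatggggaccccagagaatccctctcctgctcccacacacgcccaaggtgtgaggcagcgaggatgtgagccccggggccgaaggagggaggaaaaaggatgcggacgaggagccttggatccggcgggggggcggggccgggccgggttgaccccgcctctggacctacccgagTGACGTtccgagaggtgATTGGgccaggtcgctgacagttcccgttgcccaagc
BBC3, chr19:47232668-47232917, minus strand: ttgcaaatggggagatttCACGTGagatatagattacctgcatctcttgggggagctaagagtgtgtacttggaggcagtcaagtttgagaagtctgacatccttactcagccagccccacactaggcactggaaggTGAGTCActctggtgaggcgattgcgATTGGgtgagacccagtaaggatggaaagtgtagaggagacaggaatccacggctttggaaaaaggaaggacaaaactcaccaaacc
BAX, chr19:48954625-48954874, plus strand: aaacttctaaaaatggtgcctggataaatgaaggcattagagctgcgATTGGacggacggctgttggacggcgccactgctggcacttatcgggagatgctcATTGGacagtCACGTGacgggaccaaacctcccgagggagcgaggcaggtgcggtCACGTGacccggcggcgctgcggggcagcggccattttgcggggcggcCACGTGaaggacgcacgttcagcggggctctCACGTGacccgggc
PMAIP1 and BAD each held 1 match to TGACGT, beginning 56 and 54 bases before the start. BAD had a second window, overlapping the one shown, for another start, and there the same match began 93 bases before it. BAX held 4 E-boxes, beginning 138, 93, 45 and 14 bases before the start, and BBC3 held 1 E-box and 1 AP-1 site. Among 35116 promoter windows of this length, TGACGT was found in 7.1%, CACGTG in 6.34%, TGANTCA in 6.57% and CCAAT in 32%. A match is a match of letters, and no binding was measured.

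All 21 probes were well above the local background on every one of the 16 arrays, and none of their spots was saturated. Values are log2 intensities, quantile-normalized by the authors; they compare the same probe between arrays and not one probe with another. Each treatment was set against MED-CTL, and PT-G also against PT, by limma's moderated test over 40982 probes, and a probe was called at the nominal p under 0.01 that the study used. PT-G and PT were set against the same 4 MED-CTL arrays, so their differences are not independent. Of the epithelial markers 8 of 9 were well above background on all arrays, KRT20 among them, and CDX1 on 1 array. The markers PTPRC of leukocytes, COL1A2 of fibroblasts and CDH5 of endothelium were well above background on no array, while 4 of 6 fibroblast, 2 of 4 endothelial and 3 leukocyte markers were so on all of them. The arrays fell into 4 runs, that is, sets of arrays with a shared stamp in the deposited records, each with 1 array per condition, on 5 slides, and median intensities ranged from 153 to 410. Arrays are listed by replicate number throughout, which is also the number of the run, except that MED-CTL replicate 1 belongs to run 2 and MED-CTL replicate 2 to run 1, so a fit blocked by run and one blocked by replicate number are not the same.

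The guardian MCL1 and the BH3-only BIK rose after PT-G and PT, by 1.5-fold and 1.47-fold after PT-G and by 1.37-fold and 1.55-fold after PT. The BH3-only BAD was called after PT alone, at 1.27-fold (adjusted p = 0.259), and kept that call in 13 of 31 alternatives in processing and samples. Its fold was 1.19 after PT-G and 1.13 after p31-43, neither of them called. After the p31-43 peptide no member was called. RNA came from whole cultures, so fewer responding cells and a smaller response per cell cannot be told apart. In PT-G against MED-CTL 3 of the 21 probes were called, 2 of MCL1 and 1 of BIK, all higher, where 3.43% of all probes were called. In PT against MED-CTL 4 of 21 were called, the same 3 and the BAD probe, all higher, where 3.64% of all probes were called. At an adjusted p under 0.05 only the brightest MCL1 probe was left in each comparison, beside 0.93% of all probes after PT-G and 0.83% after PT. The median log2 fold change over the 21 probes was 0.25 after PT-G and 0.31 after PT, against -0.0056 and -0.012 over all probes, and 14 and 18 of them lay above 0. After p31-43, where no member was called, 19 of the 21 lay above 0. This p31-43 count fell to 14 with background-subtracted signal, without p31-43 replicate 2, without MED-CTL replicates 3 or 4 and without run 3. Over the alternatives the counts above 0 ran from 12 to 17 after PT-G and from 15 to 18 after PT. Of all probes 47.9% lay above 0 after PT-G, 46.3% after PT and 48.9% after p31-43. Single arrays moved the member medians: that of PT was 0.060 without MED-CTL replicate 3, and that of PT-G was 0.12 without PT-G replicate 2, 0.15 without MED-CTL replicate 3, 0.39 without PT-G replicate 4 and 0.41 without PT-G replicate 3. Without run 3 as a whole the PT median was 0.19.

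**Figure D1:**
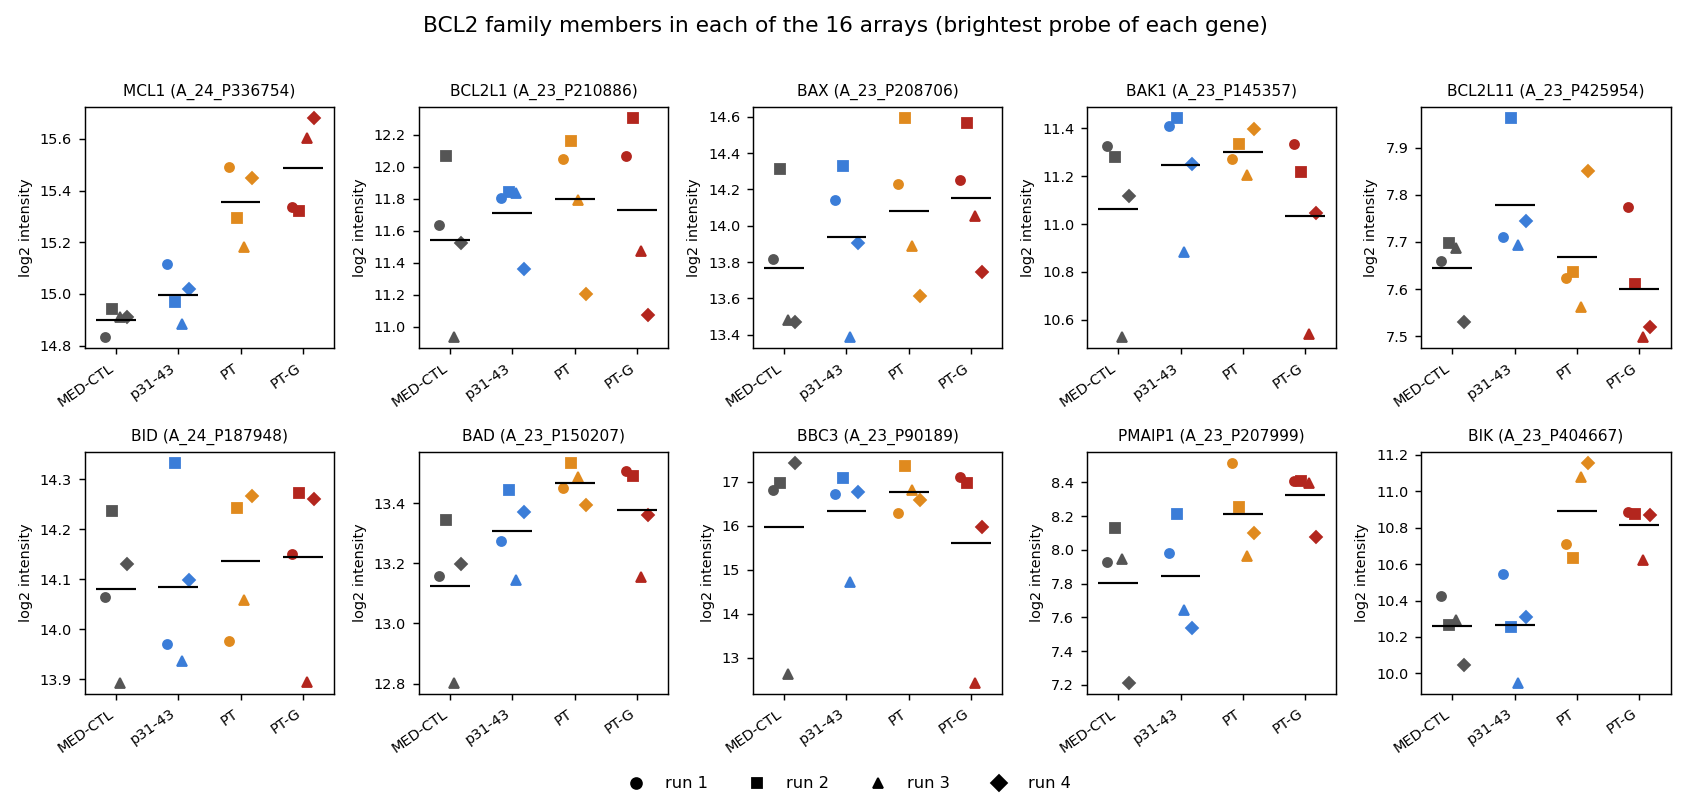
Log2 intensity of the brightest probe of each of the 10 members in the 16 arrays, with the 4 conditions on the x axis, the run given by the shape of the point and the group mean by a bar. In MCL1 and BIK the PT and PT-G arrays lie above all 4 MED-CTL arrays, with MED-CTL at 14.83 to 14.94 in MCL1 and 10.05 to 10.43 in BIK.

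MCL1 was read by 3 probes. In the brightest, A_24_P336754, the 4 MED-CTL arrays gave 14.94, 14.83, 14.91 and 14.91. The PT-G arrays gave 15.34, 15.32, 15.60 and 15.68, and the PT arrays 15.49, 15.30, 15.18 and 15.45. No treated array of either group came down to the MED-CTL range, and the SD within MED-CTL was 0.046. The log2 fold change was 0.59 (SE 0.09) for PT-G, a fold of 1.5 (adjusted p = 0.00889). For PT it was 0.46 (SE 0.09), a fold of 1.37 (adjusted p = 0.0401). Over the 31 alternatives in processing and samples the PT-G difference stayed between 0.48 and 0.68, with adjusted p between 0.00279 and 0.339, and the PT difference between 0.39 and 0.52, with adjusted p between 0.00955 and 0.55. Leaving out 1 array kept the PT-G adjusted p under 0.05 each time, but raised that of PT to 0.05 or more in 10 of 16 fits, with a highest value of 0.134: without any MED-CTL array, without p31-43 replicates 1, 2 or 4 and without PT replicates 1, 2 or 4. In the p31-43 arrays the probe gave 15.12, 14.97, 14.88 and 15.02, across the MED-CTL range, and the difference was 0.10 (95% interval -0.10 to 0.30).

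The second MCL1 probe, A_24_P336759, gave 11.30, 11.03, 11.46 and 11.73 in MED-CTL, 11.65, 11.64, 12.03 and 12.11 in PT-G and 11.87, 11.62, 11.91 and 12.04 in PT. The groups touched, since the highest MED-CTL array stood above the lowest arrays of both treatments. The log2 fold change was 0.48 (SE 0.16) in each comparison, called in both, with an adjusted p of 0.27 after PT-G and 0.257 after PT. Leaving out 1 array ended the PT-G call in 10 of 16 fits (MED-CTL replicates 1, 2 or 3, p31-43 replicates 1, 3 or 4, PT replicates 1 or 3, PT-G replicates 3 or 4), with differences between 0.36 and 0.59 over the 16. It ended the PT call in 8 of 16 (MED-CTL replicates 1, 2 or 3, p31-43 replicates 1 or 3, PT replicates 1, 3 or 4), with differences between 0.36 and 0.60. The array annotation lists for these probes the long and the short MCL1 transcript, NM_021960 and NM_182763. The short form lacks the membrane anchor and is described as promoting death, and the probes do not tell the forms apart.

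The third MCL1 probe, A_24_P319635, is listed for the long transcript alone. It gave 9.08, 9.0, 9.83 and 8.51 in MED-CTL, 9.80, 9.99, 10.67 and 9.31 in PT-G and 10.07, 9.70, 9.49 and 9.31 in PT. The groups overlapped, with an SD of 0.54 within MED-CTL, and the difference of 0.84 (SE 0.33) for PT-G did not pass (adjusted p = 0.461). Within the runs, however, PT-G exceeded MED-CTL by 0.80, 0.91, 0.84 and 0.80, the narrowest spread of any MCL1 probe. When the fit was blocked by run the probe was called (adjusted p = 0.033), and likewise when it was blocked by replicate number (adjusted p = 0.0404). For PT the within-run differences were 1.08, 0.61, -0.34 and 0.80, and the probe was called with neither of these blocks. PT replicate 3 lay on another slide than MED-CTL replicate 3, and in a fit blocked by slide the PT difference was 0.84 (SE 0.13, adjusted p = 0.00459). That slide, slide 5, held PT replicate 3 and p31-43 replicate 4 alone. The slide fit thus had no MED-CTL array beside PT replicate 3 and could not test the negative difference of run 3. Without run 3 the PT difference was 0.83 (SE 0.30) and was not called.

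BCL2L1, the gene of BCL-XL, was read by a probe printed on 10 spots, A_23_P210886, and by A_24_P100130, which the annotation lists for the short, pro-apoptotic transcript NM_001191 alone. The first gave 12.07, 11.64, 10.94 and 11.52 in MED-CTL, 12.07, 12.31, 11.47 and 11.08 in PT-G and 12.05, 12.16, 11.79 and 11.21 in PT. The groups overlapped over nearly their whole range, and the differences were 0.19 (SE 0.29) for PT-G and 0.26 (SE 0.29) for PT. The second gave 8.47, 8.23, 8.56 and 8.46 in MED-CTL and 9.24, 9.26, 9.09 and 8.20 in PT-G, so that 3 of 4 PT-G arrays stood above MED-CTL and the fourth below it. Its difference of 0.52 (SE 0.26, adjusted p = 0.706) did not pass, but without PT-G replicate 4 it was 0.77 and was called (adjusted p = 0.264). In PT the same probe gave 9.32, 9.18, 8.71 and 8.30, a difference of 0.45 (SE 0.26).

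Of the effectors, BAX was read best by A_23_P208706, also printed on 10 spots. Its values were 14.31, 13.82, 13.48 and 13.47 in MED-CTL, 14.25, 14.57, 14.06 and 13.74 in PT-G and 14.23, 14.60, 13.89 and 13.61 in PT. The groups overlapped, and the differences of 0.38 (SE 0.26) and 0.31 (SE 0.26) did not pass. Within each of the 4 runs, though, BAX was higher in the treated array, by 0.25 to 0.57 for PT-G and by 0.15 to 0.41 for PT. Blocked by run, the PT-G difference was called (adjusted p = 0.0752) and that of PT was not (adjusted p = 0.135). Blocked by replicate number, the PT-G difference was not called (adjusted p = 0.224). A_23_P346311 lay higher in 4 of 4 runs after PT-G as well, with a difference of 0.34 (SE 0.40).

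BAK1, the second effector, was not called in any comparison. Its single probe gave 11.28, 11.33, 10.53 and 11.12 in MED-CTL and 11.33, 11.22, 10.54 and 11.04 in PT-G, and the difference was -0.030 (95% interval -0.44 to 0.39). In PT it gave 11.27, 11.34, 11.20 and 11.40, a difference of 0.24 (95% interval -0.18 to 0.65). Within the runs the PT-G arrays lay between -0.073 and 0.013 of their MED-CTL array. For PT the differences within the runs were -0.055, 0.056, 0.68 and 0.28. The 0.68 was in run 3, where the PT array lay on another slide than the MED-CTL array.

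**Figure D2:**
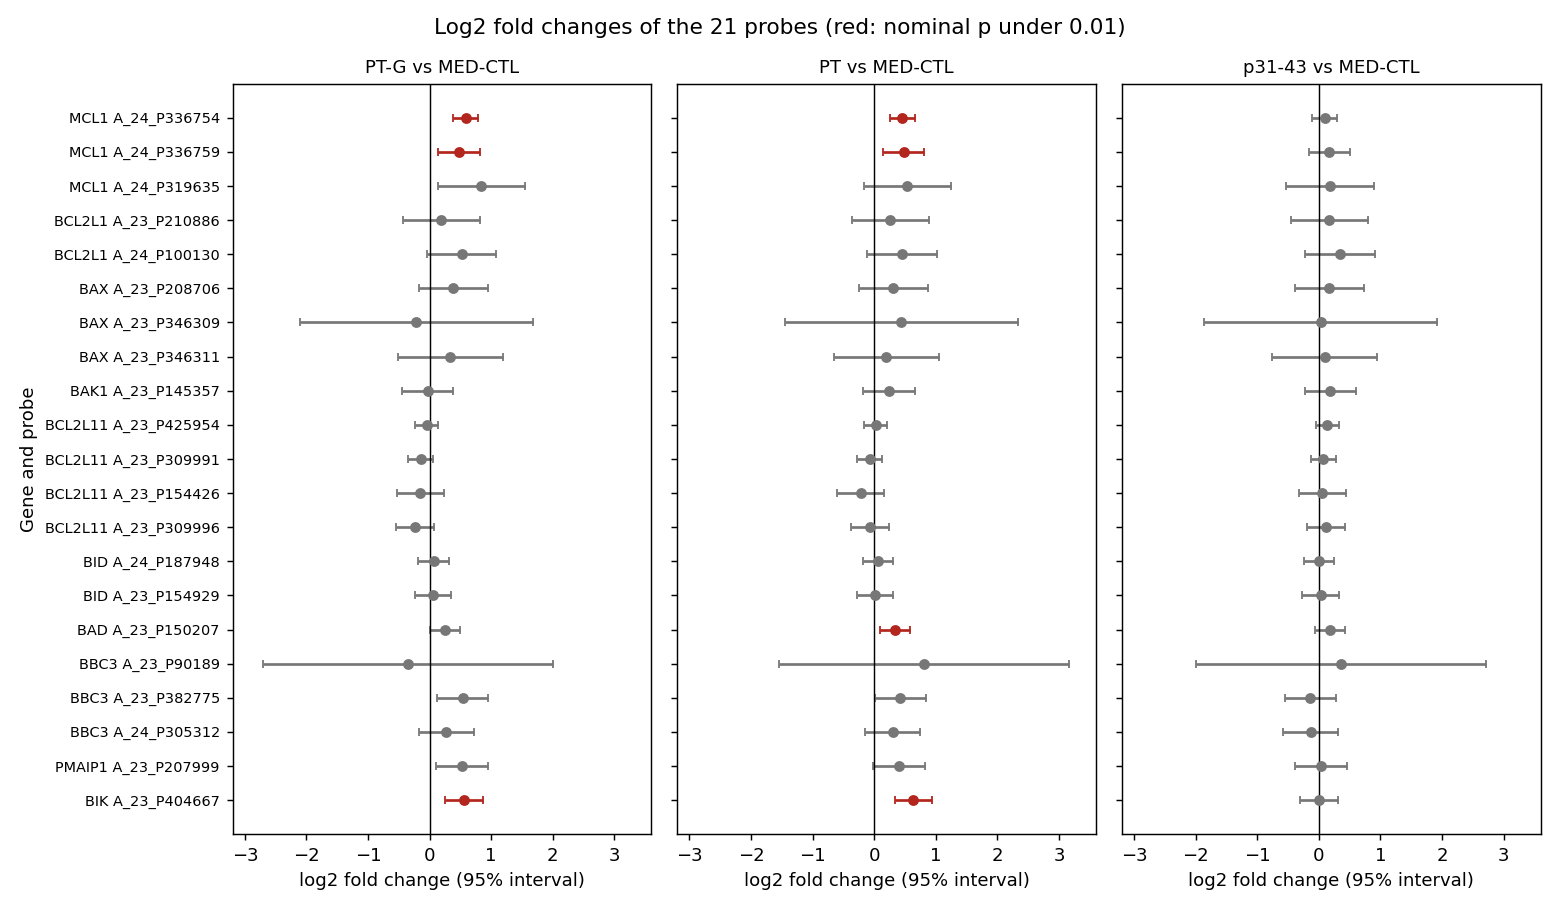
Log2 fold changes of the 21 member probes against MED-CTL after PT-G, PT and p31-43, with 95% intervals from limma on the x axis and a probe on each line, red where the nominal p was under 0.01. The 3 red probes after PT-G are 2 of MCL1 and the one of BIK, BAD joins them after PT, and none is red after p31-43; the widest intervals are those of BBC3 A_23_P90189 and BAX A_23_P346309.

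BIK, a BH3-only protein of the endoplasmic reticulum that binds the guardians, was the other clear member. Its probe A_23_P404667 gave 10.27, 10.43, 10.29 and 10.05 in MED-CTL. It gave 10.89, 10.87, 10.62 and 10.87 in PT-G and 10.71, 10.63, 11.08 and 11.15 in PT. All 8 treated arrays stood above the highest MED-CTL array. The log2 fold change was 0.56 (SE 0.14) for PT-G, a fold of 1.47 (adjusted p = 0.104), and 0.64 (SE 0.14) for PT, a fold of 1.55 (adjusted p = 0.0562). In the fit blocked by run both fell under 0.05 after adjustment (adjusted p = 0.0465 after PT-G, adjusted p = 0.024 after PT), and blocked by replicate number the PT-G value did not (adjusted p = 0.0681). Over the 31 alternatives the PT-G difference lay between 0.48 and 0.63, with adjusted p between 0.0209 and 0.468, and the PT difference between 0.48 and 0.72, with adjusted p between 0.024 and 0.23. The p31-43 arrays gave 10.55, 10.25, 9.95 and 10.31, a difference of 0.0053 (95% interval -0.30 to 0.31).

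BAD, which binds BCL-XL when it is not phosphorylated, was called after PT. Its values were 13.34, 13.16, 12.80 and 13.20 in MED-CTL, 13.45, 13.53, 13.49 and 13.39 in PT and 13.51, 13.49, 13.15 and 13.36 in PT-G. The PT arrays all stood above the MED-CTL arrays, by a mean log2 of 0.34 (SE 0.11, adjusted p = 0.259). For PT-G the difference was 0.25 (SE 0.11, adjusted p = 0.575), and the direct difference of PT-G from PT was -0.088 (95% interval -0.33 to 0.15). After p31-43 the BAD difference from MED-CTL was 0.18 (95% interval -0.06 to 0.42) and was not called. Within the runs BAD was higher in 4 of 4 after PT-G, by 0.15 to 0.35, and in 4 of 4 after p31-43, by 0.10 to 0.34. The PT call was lost in 11 of the 16 fits without 1 array (MED-CTL replicates 2, 3 or 4, p31-43 replicates 1 or 4, any PT array, PT-G replicates 2 or 4), and the difference was lowest, at 0.23, without MED-CTL replicate 3. In all 4 runs BAD was higher after PT, by 0.19 to 0.68. The 0.68 was in run 3, where the PT array lay on another slide than the MED-CTL array. The other runs gave 0.29, 0.19 and 0.20, and without run 3 the PT difference was 0.23 and was not called. Blocked by run BAD was called after both treatments (adjusted p = 0.0258 after PT, adjusted p = 0.0948 after PT-G). Blocked by replicate number (adjusted p = 0.152) or by 2 batches, the first 2 and the last 2 runs (adjusted p = 0.249), the PT-G difference was not called.

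PMAIP1 (NOXA), which binds MCL1, gave 8.13, 7.93, 7.95 and 7.21 in MED-CTL, 8.41, 8.41, 8.40 and 8.08 in PT-G and 8.51, 8.25, 7.97 and 8.10 in PT. MED-CTL replicate 1 reached into both treated groups and replicate 4 lay far below them. The difference was 0.52 (SE 0.20, adjusted p = 0.415) for PT-G and 0.41 (SE 0.20, adjusted p = 0.596) for PT. Within the runs PT-G was higher by 0.28 to 0.87 in 4 of 4. In the fits blocked by run and by replicate number PMAIP1 was called after PT-G (adjusted p = 0.0383 and adjusted p = 0.0493). Leaving out MED-CTL replicate 1 also brought the PT-G difference past the threshold, at 0.63 (adjusted p = 0.305). The 10 spots of the probe differed between themselves by a median SD of 0.0924 within an array, less than the mean SD of 0.279 between arrays of a group. Tested spot by spot, they gave PT-G differences from 0.47 to 0.66, of which 1 of 10 had a nominal p under 0.01.

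BBC3 (PUMA), which binds every guardian, was read by 3 probes that did not behave alike. A_23_P382775 gave 12.58, 12.50, 12.49 and 12.06 in MED-CTL, 12.92, 12.99, 13.20 and 12.70 in PT-G and 13.23, 12.83, 12.47 and 12.80 in PT. The PT-G arrays stood clear of MED-CTL, with a difference of 0.54 (SE 0.19, adjusted p = 0.36), and the PT difference was 0.42 (SE 0.19, adjusted p = 0.542); neither was called. Within the runs PT-G was higher by 0.41 to 0.70 in 4 of 4, and the probe was called in the fit blocked by run (adjusted p = 0.0788) and in that blocked by replicate number (adjusted p = 0.0995). A_24_P305312 showed 0.27 (SE 0.21) and 0.30 (SE 0.21).

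The brightest BBC3 probe, A_23_P90189, varied with the slide. On slide 3, which held MED-CTL replicate 3, p31-43 replicate 3 and PT-G replicate 3, it gave 12.64, 14.73 and 12.43, and on the other 13 arrays 15.98 to 17.43. PT replicate 3, of the same run but on slide 5, gave 16.83. The same 3 arrays were the lowest in the BAX probe A_23_P346309, at 10.40, 11.03 and 10.30 against 11.86 to 14.57 on the others. The other probes of both genes did not drop there: BBC3 A_23_P382775 read 11.97 to 13.20 on slide 3 and 11.98 to 13.23 elsewhere, and BAX A_23_P208706 read 13.39 to 14.06 and 13.47 to 14.60. The slide 3 arrays were the lowest 3 of the 16 in 5 of the 21 member probes, these and those of BAK1, BAD and BID A_24_P187948, and in 6.13% of all probes. With their SE of 1.10 for BBC3 and 0.88 for BAX, the treatment differences of these probes could not be placed on either side of 0. BBC3 A_23_P90189 gave -0.34 for PT-G and 0.80 for PT, and the latter was -0.33 without run 3. The cause of the low values on slide 3 was not tested.

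**Figure D3:**
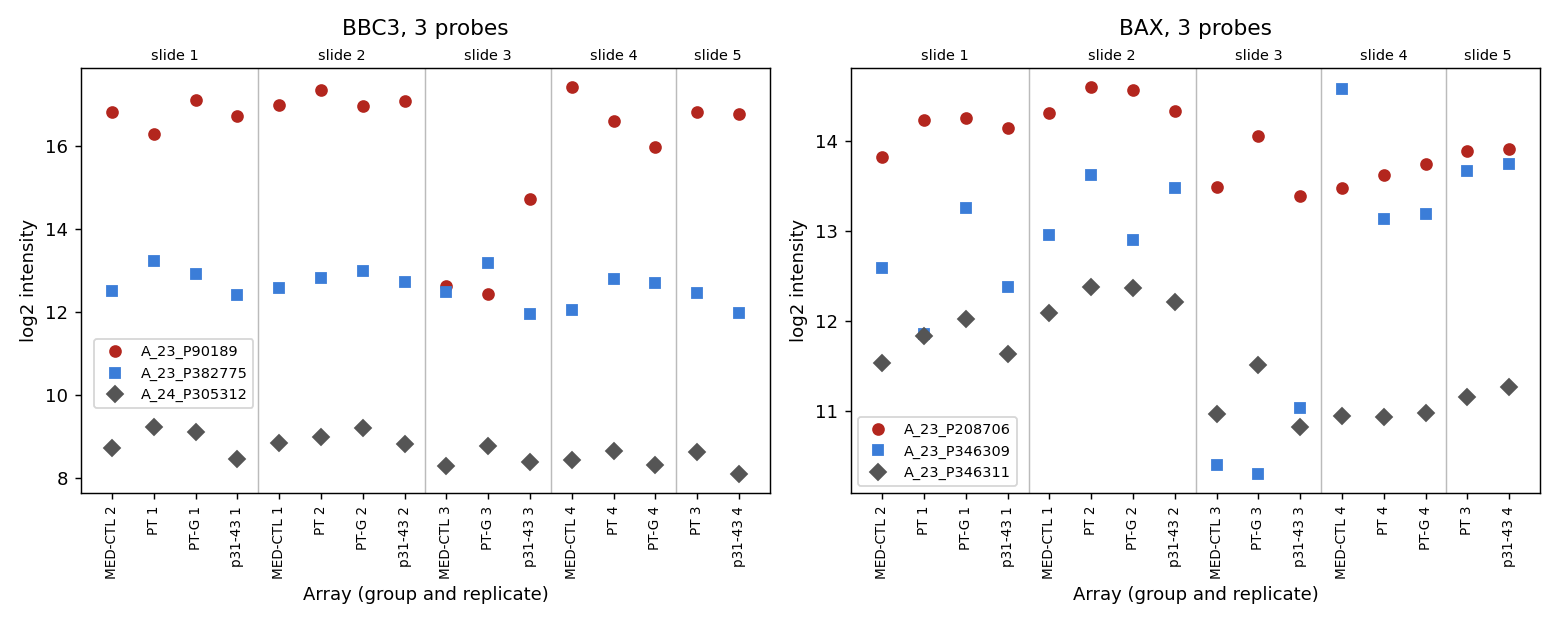
Log2 intensity of the 3 probes of BBC3 and the 3 of BAX in each of the 16 arrays, ordered along the x axis by slide, with vertical lines between slides. BBC3 A_23_P90189 and BAX A_23_P346309 lie lowest on the 3 arrays of slide 3, at 12.43 to 14.73 and 10.30 to 11.03, while the other probes of the same genes do not.

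BCL2L11 (BIM) and BID, both direct activators of BAX and BAK1, gave no call in any comparison. The 4 BCL2L11 probes lay between 6.65 and 7.96 on all arrays, and their differences ran from -0.24 to -0.043 for PT-G and from -0.22 to 0.024 for PT. In A_23_P309996 the PT-G arrays, at 6.66, 6.74, 6.93 and 6.78, all stood below the MED-CTL arrays, at 7.02, 6.94, 6.99 and 7.15, a difference of -0.24 (SE 0.14, adjusted p = 0.822). That probe had a p31-43 array at 7.70, and without this array the PT-G difference was called (adjusted p = 0.253). BID showed differences of 0.064 (95% interval -0.18 to 0.31) and 0.055 (95% interval -0.19 to 0.30) in its brighter probe.

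Counted over the 21 probes, the arrays did not overlap between PT-G and MED-CTL in 4, the first MCL1 probe, BIK and BBC3 A_23_P382775 above and BCL2L11 A_23_P309996 below, where 3.86% of all probes did not overlap. Between PT and MED-CTL they did not overlap in 3, MCL1, BIK and BAD, where 5.04% of all probes did not. For p31-43 against MED-CTL the count was 0 of 21 beside 1.37%, and for PT-G against PT 0 of 21 beside 0.661%.

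Fits that allow for the run changed the count of calls. Blocked by run, 8 of 21 probes were called after PT-G, all higher, and these added the third MCL1 probe, PMAIP1, BBC3, BAX and BAD to the former ones; 9.11% of all probes were called in that fit. After PT the run block gave 5 of 21 beside 10.2% of all probes. Blocked by slide, the counts were 9 of 21 beside 12.2% for PT-G and 8 of 21 beside 10.6% for PT. In that fit PT replicate 3 had no MED-CTL array on its own slide. The replicate numbers of PT-G and MED-CTL paired their arrays, and with the number as a block 6 of 21 were called after PT-G beside 7.58%. The blocks raised the share of calls over the whole table as well as among the members. Without run 3, 3 of 21 probes were called after PT-G, MCL1 A_24_P336754 and BIK higher and BCL2L11 A_23_P309996 lower, and 2 of 21 after PT, the same MCL1 and BIK probes. Over all probes that fit called 1702 after PT-G and 1570 after PT, against 1404 and 1491 with all runs.

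**Figure D4:**
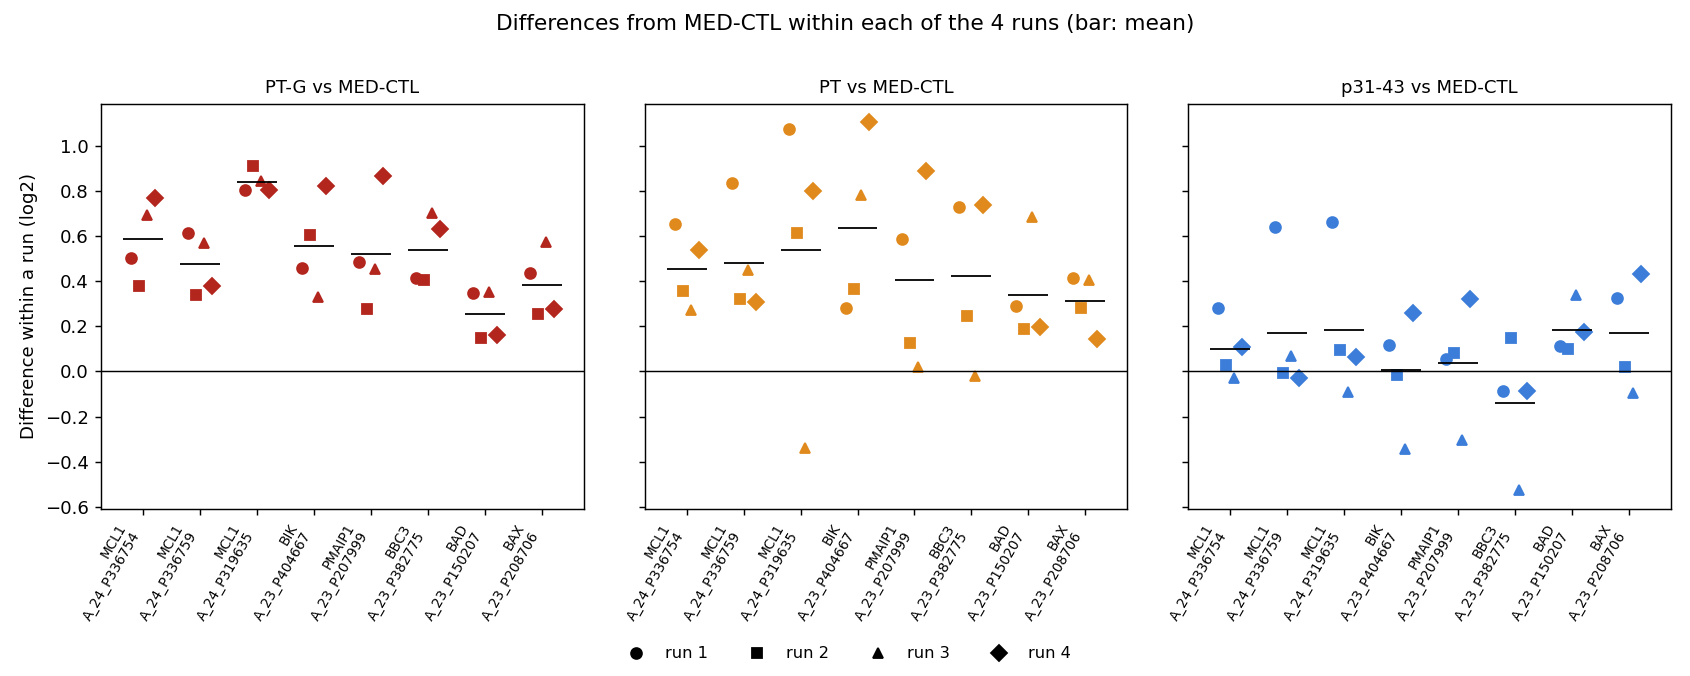
Difference of each treated array from the MED-CTL array of the same run, in log2 units on the y axis, for 8 member probes on the x axis, with the run given by the shape of the point and the mean by a bar. The 8 probes are those called higher after PT-G in the fit blocked by run. Their 32 PT-G points, all above 0 at 0.15 to 0.91, therefore describe that choice. Above 0 lie 30 of 32 points after PT and 21 of 32 after p31-43. These too are differences from the same MED-CTL arrays, so their counts are not independent of the choice.

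For the p31-43 peptide no member was called. By limma 0 of 21 probes were called, and 0 had a nominal p under 0.05, where 0.403% of all probes were called. The differences of the 10 brightest probes ran from 0.0031 in BID to 0.36 in BBC3 A_23_P90189, the probe that was low on slide 3. That BBC3 value had an SE of 1.10 and was -0.21 without run 3. The other BBC3 probes, A_23_P382775 and A_24_P305312, gave -0.14 and -0.13, the only member probes below 0. The median differences over the 21 probes and over all probes were 0.099 and -0.0032. The former was 0.028 with array weights and 0.17 with median scaling. The intervals still allow changes of 0.30 in MCL1 A_24_P336754, 0.31 in BIK and 0.46 in PMAIP1. They reach 0.50 and 0.90 in the other MCL1 probes, A_24_P336759 and A_24_P319635. Within the runs, the difference in MCL1 A_24_P336754 was 0.28, 0.029, -0.027 and 0.11.

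Between PT-G and PT no member was called either. By limma 0 of 21 probes were called, and 0 had a nominal p under 0.05, beside 0.0903% of all probes. The differences were 0.13 (95% interval -0.07 to 0.33) in MCL1 A_24_P336754, -0.080 (95% interval -0.38 to 0.22) in BIK, 0.11 (95% interval -0.31 to 0.54) in PMAIP1 and 0.12 (95% interval -0.30 to 0.53) in BBC3 A_23_P382775. Differences of the size seen against MED-CTL in MCL1 A_24_P336754 and BIK lie outside these intervals. For PMAIP1 and BBC3 the intervals reach to about the size of the differences against MED-CTL. The other MCL1 probes were not alike in this. For A_24_P336759 the 95% interval was -0.34 to 0.33, and its differences of 0.48 against MED-CTL lie outside it. A_24_P319635 gave 0.30 (SE 0.33) between PT-G and PT. Its 95% interval contains its differences against MED-CTL, 0.84 for PT-G and 0.54 for PT, so a difference of that size was not excluded there.

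Genes around the family were counted by the brightest probe of each. Among 14 measured others of the BCL2 family, 1 was higher and 2 were lower after PT-G, and the same held after PT. BCL2L14 (BCL-G) was higher, by 0.94 (SE 0.27) and 0.98 (SE 0.27), and its second probe by 0.73 and 0.50. BNIP1, a SNARE protein of the endoplasmic reticulum, was lower, by -0.61 (SE 0.18) and -0.63 (SE 0.18). BCL2L10 was lower, by -0.34 (SE 0.12) and -0.37 (SE 0.12). The BCL2L10 call was kept in 12 of 31 alternatives after PT-G and in 23 of 31 after PT. For BNIP1 these counts were 26 and 29, and for BCL2L14 27 and 29. None of the 3 reached an adjusted p under 0.05, and the median of the list was 0.012 after PT-G and 0.026 after PT.

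Among 14 measured genes of the apoptosome and caspases, 0 were called by limma after PT-G and 1 after PT. This was HTRA2, a mitochondrial protease that relieves the block on caspases, at 0.76 (SE 0.20, adjusted p = 0.11), against 0.54 (SE 0.20, adjusted p = 0.374) after PT-G. After p31-43 CASP6, an executioner caspase, was called at 0.33 (SE 0.11), and not after adjustment. The list medians were 0.063 after PT-G and 0.15 after PT.

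Of 8 genes of the integrated stress response, which can raise PMAIP1 and BBC3, ATF3 alone was called. It rose by 1.15 (SE 0.14, adjusted p = 0.00146) after PT-G and by 0.87 (SE 0.14, adjusted p = 0.00852) after PT. Its other probe, A_24_P33895, gave 0.95 (SE 0.27, adjusted p = 0.165) after PT-G, and 0.68 (SE 0.27, adjusted p = 0.425) after PT, which was not called. The list medians were 0.26 and 0.47. Of 7 measured genes that govern the stability of MCL1 and the BH3-only proteins, among them the ubiquitin ligases HUWE1 and FBXW7 and the deubiquitinase USP9X, 0 were called by limma in any of the 4 comparisons, and the list medians were -0.05 after PT-G and 0.05 after PT.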

How the data were processed

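RNA of 16 Caco-2 cultures was read on Agilent one-colour 4x44K arrays. Spot intensity values were deposited by the authors as Feature Extraction 9.5.3.1 output, and the deposited table of log2 values held their quantile-normalized median foreground without background correction; recomputing it from the scanner intensities gave differences of at most 5e-09. The study's own probe filter and re-annotation were not used here, and neither were the array's probe coordinates, whose build is not given in the sources used here.

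Control spots (1639 of 45015) and spots marked as outliers (21 of the 768 member spots over all arrays) were left out, spots of a probe were averaged, and probes with at least 3 unmarked arrays per group were kept, which left out 18. Groups came from the labels. limma 3.58.1 in R 4.3.3 fitted the 4 groups together without a block, with Benjamini-Hochberg adjustment over 40982 probes; the fit was tested on simulated data. Every member was named with all its probes; a gene of a wider list was read by its brightest probe and named, up to 6 a list, where its nominal p was under 0.01. One wider list and one marker list are not reported here. The members and lists were chosen with earlier results of these data known. The accession of 20 of the 21 member probes matched a current symbol, in each case the array's name.

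Quantile normalization ties the overall intensity of all arrays together, so a change common to most transcripts would not be seen. The number of arrays, 4 per group, limits the precision. Nothing used here separates the spread between cultures from that between arrays. Deviations of arrays with the same replicate number correlated over probes at 0.396 to 0.857 for PT-G and MED-CTL and 0.262 to 0.706 for p31-43 and MED-CTL. Arrays of the same run gave 0.629 to 0.857 and 0.538 to 0.706. The numbers thus pair these samples, though less closely than the runs. For PT and MED-CTL the lowest was -0.0026 and for PT-G and PT 0.0522, by number and by run alike.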

Additional observations from a re-analysis of the deposited data

Results flagged for a closer look

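In 8 of 84 sets of 4 replicates, 1 array stood far from the others by Dixon's ratio at its 95% critical value; chance gives this in about 1 set in 20. For BBC3 A_23_P90189 these were MED-CTL replicate 3 at 12.6 (nearest other array 16.8) and p31-43 replicate 3 at 14.7 (16.7), and for BAX A_23_P346309 PT-G replicate 3 at 10.3 (12.9), all on slide 3. For BCL2L1 p31-43 replicate 4 stood low in both probes, at 11.4 (11.8) in A_23_P210886 and 8.23 (8.90) in A_24_P100130, and PT-G replicate 4 in the second, at 8.20 (9.09). PT-G replicate 4 stood low in PMAIP1, at 8.08 (8.40), and PT-G replicate 3 in BIK, at 10.6 (10.9); both still lay above the MED-CTL mean of the gene.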

How the results depend on the processing

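The counts of called member probes moved with the processing, while no called difference changed sign under any alternative; over all alternatives, 62 differences gave 1928 values, of which 34 newly passed the threshold, 48 no longer passed and 76 changed sign. Against 3 probes after PT-G and 4 after PT, background-subtracted signal scaled to the 75th percentile gave 1 and 1, and with it the PT difference in MCL1 A_24_P336754 and the PT-G difference in BIK lost their call, which they kept in 30 of 31 alternatives. After PT-G the count was 6 with the replicate block, 8 with a run block, 9 with a slide block, 5 with 2 batches as a block and 6 with array weights. Over all probes the PT-G count was 1404 in the main fit and 3108, 3735, 4996, 2381 and 2983 in these, in turn. After PT the member count was 8 with a slide block. It was 2 each with the filter on dim probes, with only the 2 groups compared, with an intensity trend and without run 3. Over all probes the PT count was 1491 in the main fit, 4332 with the slide block and 1164, 1117, 1209 and 1570 in the rest. The filter on dim probes also left fewer probes to test. The replicate numbers of PT and MED-CTL did not meet the test for pairing, and the replicate block gave 5 calls there, beside 3463 over all probes. Leaving out 1 array gave 2 to 4 calls in each comparison, beside 1042 to 1686 over all probes after PT-G and 1074 to 1884 after PT. At an adjusted p under 0.05, against 1 probe in each, the counts for PT-G and PT were 4 and 4 with the replicate block, 5 and 4 with a run block, 8 and 6 with a slide block, 2 and 3 with 2 batches, and 0 and 0 with background-subtracted signal and with only the 2 groups compared. Array weights gave 2 after PT-G. The intensity trend, median scaling, leaving out dim probes and leaving out run 3 each gave 0 after PT, and leaving out 1 array gave 1 after PT-G and 0 to 2 after PT. How many of all probes passed the adjusted threshold under these alternatives was not counted. Under every alternative 0 member probes were called by limma after p31-43 and between PT-G and PT. Median scaling moved the median of all probes by -0.11 for PT against MED-CTL. Leaving out run 3 and testing each spot on its own were chosen after seeing the data.

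Differences that changed sign were all uncalled. With array weights BAX A_23_P346309 gave 0.099 for PT-G, BBC3 A_23_P90189 0.039 for PT-G and -0.032 for p31-43, BID A_24_P187948 -0.018 for p31-43, and BCL2L11 A_23_P425954 -0.012 for PT, 0.0039 for PT-G and 0.016 for PT-G against PT, for which BCL2L1 A_23_P210886 gave 0.12 and BIK 0.073. With background-subtracted signal p31-43 gave -0.042 in BID A_24_P187948, -0.089 in BIK and -0.075 in MCL1 A_24_P336754, and PT gave -0.074 in BCL2L11 A_23_P425954. With the mean foreground BIK gave -0.0026 for p31-43 and BID A_24_P187948 -5.1e-05 for PT-G against PT, which was -0.00051 with a quantile normalization without control spots. With median scaling BAK1 gave 0.030 for PT-G and BCL2L11 A_23_P425954 -0.00017 for PT, and with normexp BIK gave -0.0049 for p31-43. With the slide block PT gave -0.37 in BAX A_23_P346309, -0.042 in BBC3 A_23_P90189 and 0.0040 in BCL2L11 A_23_P309996, and p31-43 gave -0.020 in BIK. Without run 3 PT gave -0.50 in BAX A_23_P346309 and -0.33 in BBC3 A_23_P90189, p31-43 gave -0.21 in BBC3 A_23_P90189, -0.076 in BCL2L1 A_23_P210886 and -0.011 in BID A_24_P187948, PT-G gave 0.0053 in BCL2L11 A_23_P425954, and PT-G against PT gave 0.011 in BCL2L1 A_23_P210886 and 0.045 in BIK.

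Leaving out 1 array gave, for PT-G, ranges of -0.21 to 0.13 in BAK1, -0.021 to 0.14 in BID A_23_P154929, -0.013 to 0.41 in BCL2L1 A_23_P210886, -0.96 to 0.48 in BAX A_23_P346309 and -1.45 to 0.72 in BBC3 A_23_P90189. For PT they were -0.050 to 0.11 in BID A_23_P154929, -0.0078 to 0.11 in BID A_24_P187948, -0.30 to 1.09 in BAX A_23_P346309, -0.074 to 0.43 in BAX A_23_P346311, -0.037 to 0.060 in BCL2L11 A_23_P425954 and -0.31 to 1.29 in BBC3 A_23_P90189. For p31-43 they were -0.16 to 0.15 in PMAIP1, -0.034 to 0.34 in BCL2L1 A_23_P210886, -0.089 to 0.11 in BIK, -0.75 to 0.90 in BBC3 A_23_P90189 and -0.080 to 0.055 in BID A_24_P187948. For PT-G against PT they were -0.083 to 0.24 in BAX A_23_P208706, -0.27 to 0.15 in BCL2L1 A_23_P210886, -0.17 to 0.0073 in BIK and -0.045 to 0.092 in BID A_24_P187948. Every member probe was well above background on all 16 arrays, and each group had 4 arrays. The cause of these changes was not tested.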
